A study of Mus musculus with 1545 samples.

Results

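AMPA and kainate receptors are the ionotropic glutamate receptors that carry most fast excitatory transmission in the dorsal horn of the spinal cord, and their subunits are encoded in the mouse by 9 genes, Gria1 to Gria4 and Grik1 to Grik5. All 9 were taken by symbol from the molecule count table of single mouse dorsal horn neurons, where they are 9 of 24378 genes. The table covers 1545 cells, each annotated by the authors to 1 of 30 neuron types. The cells came from 3 lines of mice. The wild-type group (C57bl6) gave 637 cells at 18 to 28 days of age. The vGat-Cre-tdTomato line, in which Cre under the vesicular GABA transporter gene switches on a red reporter in inhibitory neurons, gave 537 cells at 17 to 24 days. The vGlut2-eGFP line, in which excitatory neurons carry enhanced GFP under the gene of a vesicular transporter of glutamate, gave 371 cells at 23 to 26 days. No treatment is named for any group. Cre and eGFP mark cells by where each transgene was active, and no more is given of the lines. The lines are called vGat and vGlut2 below.

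Receptors of both families are tetramers. The AMPA subunits GluA1 to GluA4 are the products of Gria1 to Gria4, and whether the Gria2 product is present sets how well calcium passes the channel. Kainate receptors are built from the low-affinity subunits of Grik1 to Grik3, which can form channels alone, and the high-affinity subunits of Grik4 and Grik5, which need one of the former. Calcium-permeable AMPA receptors have long been described in subsets of dorsal horn neurons, and Grik1 is known from sensory neurons and dorsal horn cells.

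The bases that carry this permeability are shown here because the Gria2 share is among the measures in which the neuron classes differed. In the pore loop lies the Q/R site, a glutamine codon that RNA editing changes to an arginine codon in nearly all Gria2 transcripts and in part of the Grik1 and Grik2 transcripts. The sequences run 5′ to 3′ along the gene strand, from the GRCm38 (mm10) transcripts of the GENCODE annotation, with the codon in capitals, and each codon lies in a coding exon.
Gria1: ggggccttcatgCAGcaaggatgtgac
Gria2: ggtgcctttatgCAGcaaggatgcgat
Gria3: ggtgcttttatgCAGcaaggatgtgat
Gria4: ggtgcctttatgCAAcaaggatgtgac
Grik1: ggagctctcatgCAGcaaggatcggag
Grik2: ggagctctcatgCAGcaaggttctgag
Grik3: ggctccctgatgCAGcaaggatctgaa
The codon is at chr11:57243094-57243096 (plus strand, exon 11 of 16) in Gria1 and at chr3:80706911-80706913 (minus strand, exon 11 of 16) in Gria2. It is at chrX:41610265-41610267 (plus strand, exon 11 of 16) in Gria3 and at chr9:4464137-4464139 (minus strand, exon 12 of 17) in Gria4. Among the kainate genes it is at chr16:87940542-87940544 (minus strand, exon 13 of 18) in Grik1, at chr10:49244329-49244331 (minus strand, exon 12 of 16) in Grik2 and at chr4:125691207-125691209 (plus strand, exon 12 of 16) in Grik3. The genome spells the codon CAG in 8 of the 9 genes, Gria2 included, and CAA in Gria4. Over the 27 bases shown, Gria3 shared 25 with Gria2, Gria4 shared 24, Gria1 23, Grik1 and Grik3 20 each, and Grik2 19. Molecule counts do not measure editing, so everything that follows is about how much of each transcript was counted.

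Of the 14853604 molecules (UMIs) in the table, 17139 were of Gria2, 5350 of Gria1, 1816 of Gria3, 1633 of Gria4, 1075 of Grik2, 1071 of Grik1, 755 of Grik5 and 88 of Grik4, with Grik3 between Grik5 and Grik4. As counts per 1000000 UMIs (CPM) over all cells these are 1154 for Gria2, 360 for Gria1, 122.3 for Gria3, 110 for Gria4, 72.4 for Grik2, 72.1 for Grik1, 50.8 for Grik5, 37.6 for Grik3 and 5.92 for Grik4. One end of each molecule is tagged, so levels are not divided by gene length, and levels of different genes are set side by side on that footing. At least 1 UMI of Gria2 was seen in 98.9% of cells, of Gria1 in 77.1% and of Grik4 in 4.79%. After each cell was thinned to 3000 UMIs, the share with a UMI was 91.7% for Gria2, 55.3% for Gria1 and 8.997% for Grik3. No cell type that lacks glutamate receptors is in the table to give a background for these shares.

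The labels name no animals. Cells of the same line, age and sex label were therefore summed into 17 animal sets, 10 of wild type, 3 of vGat and 4 of vGlut2, and p-values measure only the spread between these sets. A set may pool several mice, and the labels do not say whether the M and F sets of wild type at 22 days are from different mice. Depth ran from 58614 to 2610563 UMIs per set, and the median depth of a cell was 8687 UMIs for wild type, 10413 for vGat and 7030 for vGlut2. Neuronal markers were present in every set, the inhibitory markers summed to 1448 to 1528 CPM in the vGat sets, and the excitatory markers summed to 578.3 to 1406 CPM in the vGlut2 sets. Of the vGlut2 sets, that of 26 days stood apart: it held 17 cells, of which 5 were annotated inhibitory. Its 10 oligodendrocyte markers summed to 39988 CPM against 78.2, 86.1 and 2125 CPM in the other vGlut2 sets. Values without it are given beside the results that rest on the vGlut2 sets.

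The reporter lines set inhibitory against excitatory neurons by genotype, independently of the clustering of cells. Gria1, Grik2 and Grik3 were far higher in the vGat line, Gria3, Gria4 and Grik1 were higher by smaller margins, and Gria2 and Grik5 leaned the other way. In edgeR's quasi-likelihood test with Benjamini-Hochberg adjustment over 10598 genes, 6 of the 8 subunit genes tested were called higher and 0 lower at an adjusted p under 0.05, where 4.32% of all genes were called higher and 4.53% lower. Their median log2 difference was 0.77, against -0.01 over all genes tested. Grik4 did not pass the filter on low counts.

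Gria1 stood at 477.8, 635.9 and 653 CPM in the vGat sets of 17, 18 and 24 days. In the vGlut2 sets of 23, 24, 25 and 26 days it stood at 162.9, 200.9, 213.2 and 220 CPM. Every vGat set was above every vGlut2 set, and the log2 difference was 1.52 (SE 0.20, adjusted p = 7.36e-05).

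Grik2, a low-affinity kainate subunit that can form channels by itself, had 110.9, 127.6 and 130.7 CPM in the vGat sets and 19.5, 19.1, 31.7 and 18.9 CPM in the vGlut2 sets. The groups did not overlap, with a log2 difference of 2.18 (SE 0.22, adjusted p = 7.15e-06). Grik3, the subunit of kainate receptors with the lowest glutamate sensitivity, had 69.4, 68.6 and 87.4 CPM in the vGat sets. In the vGlut2 sets it was at 0, 0, 4.60 and 18.9 CPM, or 12 UMIs in all, and the highest value was that of the 26-day set with its inhibitory cells. The groups were again apart, with a log2 difference of 3.99 (SE 0.41, adjusted p = 7.62e-06).

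Gria3 stood at 131.4, 135.6 and 190 CPM in vGat and at 89.04, 86.1, 103.8 and 62.9 CPM in vGlut2, a log2 difference of 0.71 (SE 0.21, adjusted p = 0.0458). Gria4 stood at 129.1, 140 and 174.7 CPM in vGat and at 99.9, 105.2, 83.9 and 62.9 CPM in vGlut2, a log2 difference of 0.71 (SE 0.20, adjusted p = 0.0379). Grik1 had 73.4, 93.8 and 80.8 CPM in vGat and 52.1, 19.1, 52.7 and 12.6 CPM in vGlut2, a log2 difference of 0.84 (SE 0.25, adjusted p = 0.0449). In all of these the sets were apart, but the calls were lost when single sets were left out: only Gria1, Grik2 and Grik3 passed without the 17-day, 18-day or 24-day vGat set, or without the 23-day or 25-day vGlut2 set, and with Gria4 4 passed without the 24-day vGlut2 set. Of the members, 8 were tested in each of these fits, or 9, with Grik4, in those without the 23-day or 24-day vGlut2 set. Calls over all genes fell too, from 938 of 10598 with every set kept. In these fits they ran from 410 of 9351 (without the 25-day vGlut2 set) to 797 of 10618 (without the 24-day vGlut2 set).

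Gria2 ran the other way in 3 of the vGlut2 sets. It stood at 797, 965 and 1073 CPM in vGat and at 1592, 2028, 1866 and, in the 26-day set, 634.8 CPM in vGlut2. The log2 difference was -0.72 (SE 0.27, adjusted p = 0.120), which did not pass. Grik5, the high-affinity subunit that assembles with the low-affinity ones, had 32.99, 29.5 and 39.6 CPM in vGat and 78.2, 66.98, 53.2 and 18.9 CPM in vGlut2, with a log2 difference of -0.80 (SE 0.26, adjusted p = 0.0682). With the 26-day vGlut2 set left out, 8 of the 9 members then tested passed, all but Grik4 (log2 difference 0.51, SE 0.54, adjusted p = 0.623). Calls over all genes rose as well: of 10737 genes tested, 744 were then called higher and 733 lower, against 458 and 480 of 10598 with the set kept. Gria2 was then lower in vGat, with a log2 difference of -0.94 (adjusted p = 7.47e-05), as was Grik5, with -0.90 (adjusted p = 0.00618). The part of that set's oligodendrocyte RNA in its values was not tested. Grik4 was at 3.98, 8.04 and 6.61 CPM in vGat and at 6.52, 0, 4.09 and 12.6 CPM in vGlut2, and these ranges overlap.

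Markers of other cells also differed between the lines. The 10 oligodendrocyte markers summed to 1481 to 4421 CPM in the vGat sets, and of the 10 tested 0 were called higher and 0 lower. With the 26-day vGlut2 set left out, 4 of the 10 were called higher in vGat and 0 lower. Of all 10737 genes tested in that fit, 744 were called higher and 733 lower. The 5 endothelial markers summed to 20.6 to 26.7 CPM in the vGat sets and to 82.3 to 251.4 CPM in the vGlut2 sets. The 1 that could be tested was called lower in vGat. With the 26-day vGlut2 set left out, the 1 tested was Itm2a (log2 difference -2.06). Of the 5, the number with any count was 4, 3 and 2 in the vGat sets of 17, 18 and 24 days. In the vGlut2 sets of 23, 24, 25 and 26 days this number was 2, 1, 2 and 5. The 6 markers of ganglion sensory neurons summed to 106.4 to 145.2 CPM in vGat and to 194.8 to 382.7 CPM in vGlut2. Nearly all of this was Calca, the gene of the peptide CGRP, which was lower in vGat by a log2 difference of -0.98 (SE 0.23, adjusted p = 0.0104). The other markers of the list, among them Scn10a, Prph and Avil, were near 0, the highest at 2.56 CPM (Prph) in any set of either line. Whether these counts came from oligodendrocytes, endothelial cells or ganglion cells was not tested, nor was the part of such cells in the receptor values.

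Cells of different lines were never captured in 1 run (0 of 82 runs), so the line cannot be told apart from its runs. By run, Gria1 ranged from 430 to 667 CPM over the 8 vGat runs and from 151.1 to 300.6 CPM over the 7 vGlut2 runs. Grik2 ranged from 104.5 to 142.5 CPM in the vGat runs and from 14.1 to 36.6 CPM in the vGlut2 runs. For both genes the runs of the 2 lines were apart, as were those of Grik3, at 48.6 to 91.6 CPM against 0 to 18.9 CPM.

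**Figure D1:**
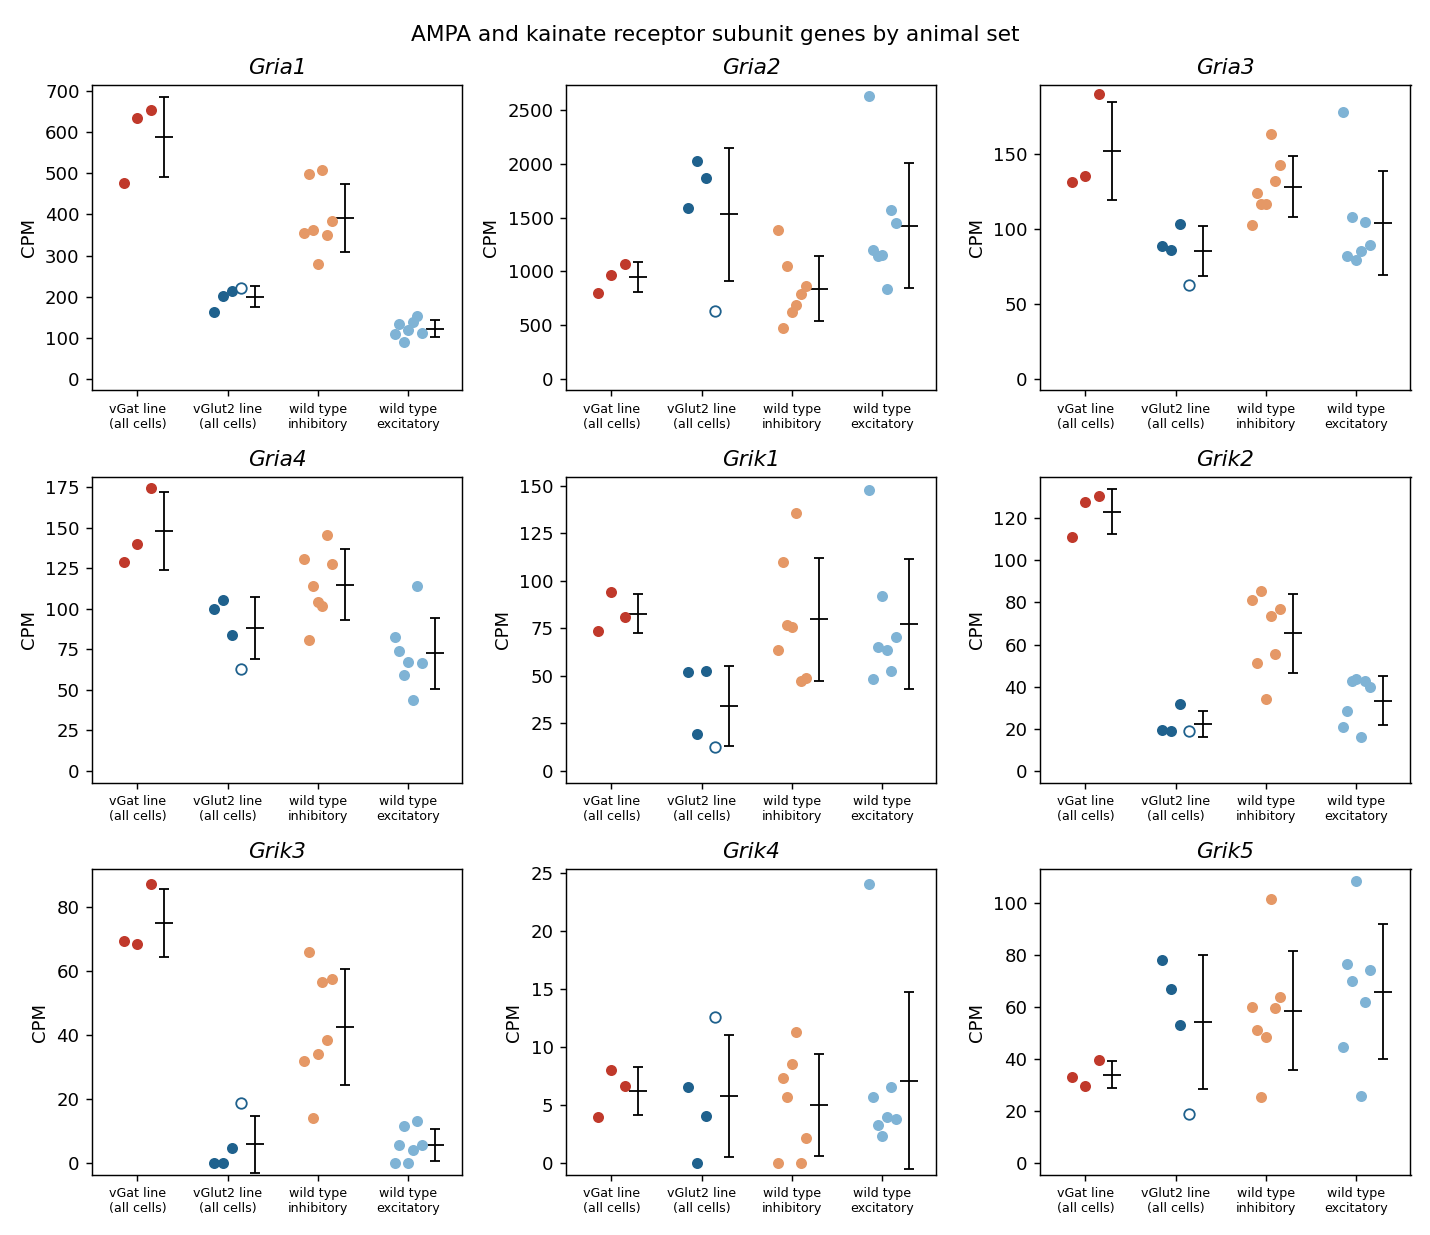
CPM of each subunit gene by animal set, in all cells of the vGat line (3 sets) and the vGlut2 line (4 sets) and in wild-type cells annotated inhibitory or excitatory (7 sets each). Points are sets, the open point is the 26-day vGlut2 set, and black bars are the mean and SD. The vGat sets of Gria1 sit between 477.8 and 653 CPM, above all vGlut2 sets.

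Within wild type, both classes came from the same animal sets and largely the same runs. The classes are the authors' annotation from these counts, so the comparison is not independent of it. Gria1, Grik3 and Gria4 were again higher in inhibitory cells and Gria2 was lower, while Grik2, Gria3, Grik1 and Grik5 did not pass. With 7 animal sets of at least 10 cells of each class and the set as a block, edgeR's test called 3 of 8 members higher and 1 lower among 8135 genes, of which 3.17% were called higher and 2.46% lower. The median log2 difference was 0.49 over the 8 members and -0.01 over all genes tested. Oligodendrocyte markers summed to 19760 to 38424 CPM in the inhibitory cells and to 16809 to 58045 CPM in the excitatory cells (over 9 sets), and 2 of the 10 were called lower in inhibitory cells; their part in the receptor values was not tested.

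Gria1 in wild-type inhibitory cells had a lowest, median and highest set of 280, 361.4 and 508.96 CPM, and in excitatory cells of 88.3, 118.1 and 153.6 CPM. The classes did not overlap, and the log2 difference was 1.62 (SE 0.13, adjusted p = 1.70e-08), higher in inhibitory cells in 7 of 7 sets. Within single runs that held at least 3 cells of each class, Gria1 was higher in inhibitory cells in 35 of 36.

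Gria2 had 476.1, 791 and 1387 CPM as lowest, median and highest set in inhibitory cells and 840, 1195 and 2629 CPM in excitatory cells. The ranges overlap, and the 22-day set labelled F was highest in both classes. Within each set the inhibitory value was the lower (0 of 7 sets higher), with a log2 difference of -0.79 (SE 0.11, adjusted p = 7.64e-05). It was lower in 33 of the 36 runs.

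Grik3 had 14.2, 38.5 and 65.9 CPM in inhibitory and 0, 5.68 and 13.1 CPM in excitatory cells, from 93 and 18 UMIs. The ranges were apart, with a log2 difference of 2.84 (SE 0.52, adjusted p = 0.00108), and inhibitory cells were higher in 30 of 36 runs. Gria4 had 80.6, 113.8 and 145.4 CPM in inhibitory and 43.8, 67.3 and 114.3 CPM in excitatory cells, higher in inhibitory cells in 7 of 7 sets although the ranges overlap. Its log2 difference was 0.67 (SE 0.17, adjusted p = 0.0158), and the call was lost without the 20-day set (adjusted p = 0.0524) or the 27-day set (adjusted p = 0.0735).

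Grik2 had 34.2, 73.5 and 85.4 CPM in inhibitory and 15.9, 39.95 and 43.7 CPM in excitatory cells and was higher in inhibitory cells in 6 of 7 sets. The log2 difference of 0.83 (SE 0.26, adjusted p = 0.0732) did not pass, and it did without the 20-day set (adjusted p = 0.0164). Gria3 (log2 difference 0.30, SE 0.18, adjusted p = 0.451), Grik1 (-0.05, SE 0.23, adjusted p = 0.959) and Grik5 (-0.30, SE 0.28, adjusted p = 0.703) overlapped between the classes. Grik4, with 12 UMIs in inhibitory and 19 in excitatory cells of these sets, was not tested. After thinning to 3000 UMIs per cell, 61.2% of wild-type inhibitory cells and 29.7% of excitatory cells held a UMI of Gria1 (89.04% and 52.4% unthinned). For Grik3 these shares were 11.9% and 0.998% (33.3% and 3.49% unthinned), and for Gria2 79.9% and 91.3% (96.3% and 98.5% unthinned).

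Shares of the family take out differences in depth and in RNA from other cells that add no receptor transcripts. Of the AMPA subunit UMIs, Gria2 made up 51.9%, 51.4% and 51.3% in the vGat sets of 17, 18 and 24 days and 81.9%, 83.8%, 82.3% and 64.7% in the vGlut2 sets of 23, 24, 25 and 26 days. Gria1 made up 31.1%, 33.9% and 31.2% in vGat and 8.38%, 8.30%, 9.41% and 22.4% in vGlut2. The vGat sets thus stood within 1 percentage point of each other for Gria2 and apart from every vGlut2 set. Of the kainate UMIs, Grik2 made up 38.2%, 38.9% and 37.9% in vGat and 12.5%, 18.2%, 21.7% and 23.1% in vGlut2, and Grik5 made up 11.4%, 9.01% and 11.5% against 50.0%, 63.6%, 36.4% and 23.1%. The kainate family was 15.9%, 14.9% and 14.2% of the UMIs of all 9 genes in vGat and 7.45%, 4.17%, 6.06% and 7.69% in vGlut2.

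Over 10 such shares, 7 had sets that did not overlap between the lines. With 3 against 4 sets the exact two-sided permutation test cannot go below p = 0.0571, which all 7 reached (adjusted p = 0.0816 over the 10 shares). In means ± SD, Gria2 was 51.5% ± 0.32 (n = 3) against 78.2% ± 9.0 (n = 4) of AMPA UMIs, and Gria1 was 32.1% ± 1.56 against 12.1% ± 6.89. Grik3 was 23.4% ± 2.23 of kainate UMIs in vGat and 6.56% ± 11.1 in vGlut2, where the 26-day set had 23.1% from 13 kainate UMIs in all. Without the 26-day set the vGlut2 means were 82.7% ± 0.996 for Gria2, 8.70% ± 0.617 for Gria1 and 1.05% ± 1.82 for Grik3 (n = 3), and 8 of the 10 shares had sets apart, where the exact test cannot go below p = 0.1.

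In wild type, Gria2 was 55.6% ± 9.95 of AMPA UMIs in inhibitory and 81.8% ± 3.62 in excitatory cells (n = 7 each), lower in inhibitory cells in every set and without overlap. Gria1 was 27.4% ± 8.29 against 7.74% ± 2.70, and Gria4 7.90% ± 1.43 against 4.34% ± 0.99, both higher in inhibitory cells in 7 of 7 sets without overlap. Grik3 was 16.8% ± 5.75 of kainate UMIs against 3.32% ± 2.76, also higher in 7 of 7 sets. Each of these 4 shares had an exact paired permutation p of 0.0156, the smallest that 7 pairs allow (two-sided, adjusted p = 0.0391). Grik2 (26.9% ± 9.18 against 17.8% ± 5.203, adjusted p = 0.0625 by the same exact test) and the kainate family among all 9 genes (14.8% ± 3.91 against 10.3% ± 2.51, adjusted p = 0.0781 by the same exact test) were each higher in 6 of 7 sets and did not pass.

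**Figure D2:**
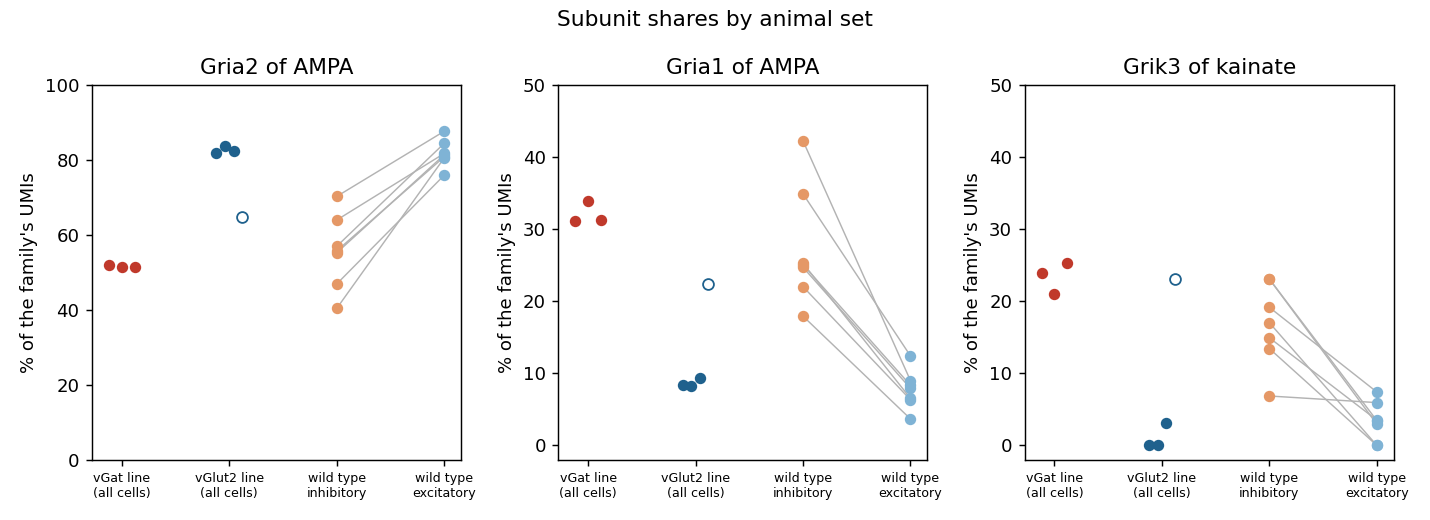
Share of Gria2 and Gria1 among AMPA subunit UMIs and of Grik3 among kainate subunit UMIs, in percent, by animal set. Points are sets, the open point is the 26-day vGlut2 set, and grey lines join the inhibitory and excitatory cells of 1 wild-type set. Every line falls for Gria1 and Grik3 and climbs for Gria2, from 40.4% to 70.3% in inhibitory cells to 75.9% to 87.6% in excitatory cells.

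Across the 30 annotated types, levels are a description, since the types were clustered from these counts and inhibitory types were drawn mostly from vGat cells. Gria2 was the most counted AMPA subunit gene in 30 of 30 types. Its share ran from 44.7% to 61.6% over the 14 inhibitory types and from 67.01% to 92.4% over the 15 excitatory types, so with all lines pooled no type of one class reached the range of the other. The lowest inhibitory value was that of GABA_Gal_Pnoc (44.7%, exact 95% interval 42.1% to 47.2%) and the highest that of GABA_Cplx1_Calb2 (61.6%, 58.5% to 64.6%). The lowest excitatory value was that of Glut_Cck_Cpne4 (67.01%, 62.6% to 71.2%) and the highest that of Glut_Nts (92.4%, 90.01% to 94.3%). These intervals cover counting error only. The gap between the classes was not present in wild-type cells alone, where the share ran from 46% to 71.2% (GABA_Cplx1_Calb2) over the inhibitory types and from 66.02% (Glut_Reln_Npff) to 94.8% over the excitatory types. In the reporter lines it ran from 42.2% to 57.2% over the 14 inhibitory types in vGat and from 67.9% to 89.9% over 13 excitatory types in vGlut2.

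As a level, Gria2 was highest in Glut_Tac2_2 (2346 CPM), Glut_Nts (2285 CPM) and Glut_Cck_Trh (2105 CPM). It was lowest in Glut_Gal (436.2 CPM), GABA_Crabp1_Spp1 (541.5 CPM) and GABA_Cplx1_Sst (671 CPM). Glut_Gal is the type of 18 cells whose 2 labels put it in different classes. With all lines pooled its AMPA mix, with 44.9% Gria2 (36.5% to 53.6%) and 30.4% Gria1 (22.9% to 38.8%), lay inside the inhibitory range and outside the excitatory one. In wild-type cells alone its Gria2 share was 40.3%, below that of the lowest inhibitory type, GABA_Gal_Pnoc, at 46%.

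Gria1 was highest in GABA_Gal_Rspo3, at 697 CPM over all its cells and 583.3 ± 147.5 CPM (SD) over 10 animal sets with at least 3 cells of the type. GABA_Tac2 (647 CPM, 11 cells) and GABA_Calb2_Tac1 (646 CPM; 525.5 ± 206.7 over 6 sets) followed. It was lowest in Glut_Cck_Maf (55.5 CPM), Glut_Tac1_2 (77.6 CPM; 78.8 ± 33.1 over 11 sets) and Glut_Tac1_1 (112.4 CPM). Inhibitory types ran from 280 to 697 CPM and excitatory types from 55.5 to 300.1 CPM. With all lines pooled the ranges overlapped through 2 excitatory types, Glut_Cck_Cpne4 (300.1 CPM; 346.5 ± 104.7 over 5 sets) and Glut_Reln_Nmur2 (285.2 CPM; 226.9 ± 100.6 over 8 sets), which were named after their values were seen. Pooled levels depend on how many cells of a type came from each line. In wild-type cells alone, inhibitory types ran from 105.6 CPM (GABA_Cplx1_Adamts5, at 367.6 CPM in vGat) to 524.2 CPM (GABA_Gal_Rspo3) and excitatory types from 33.5 to 293.7 CPM (Glut_Cck_Cpne4), so that 9 of 15 excitatory types lay inside the inhibitory range. In vGat cells GABA_Tac2 was highest (839.6 CPM), above GABA_Gal_Rspo3 (744.3 CPM), and in wild type GABA_Npy_only (461.2 CPM) came second.

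Gria3 was highest in GABA_Cplx1_Sorcs3 (231.6 CPM), GABA_Gal_Pnoc (204.8 CPM) and GABA_Npy_Qrfpr (184.5 CPM) and lowest in Glut_Nts (23.6 CPM), Glut_Cck_Trh (34.3 CPM) and GABA_Tac2 (36.8 CPM). The last value rests on 5 UMIs. Gria4 was highest in GABA_Cplx1_Adamts5 (220.95 CPM), GABA_Crabp1 (190 CPM) and GABA_Cplx1_Sorcs3 (171.6 CPM) and lowest in Glut_Cck_Maf (29.9 CPM), Glut_Qrfpr (32.7 CPM) and Glut_Nts (47.2 CPM). In GABA_Cplx1_Adamts5, Gria4 took 13.1% of AMPA UMIs and Gria1 16.6%, the lowest Gria1 share of any inhibitory type. Gria2, Gria3 and Gria4 were therefore ordered differently among inhibitory types, and Glut_Nts combined the highest Gria2 share with the lowest Gria3 level.

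**Figure D3:**
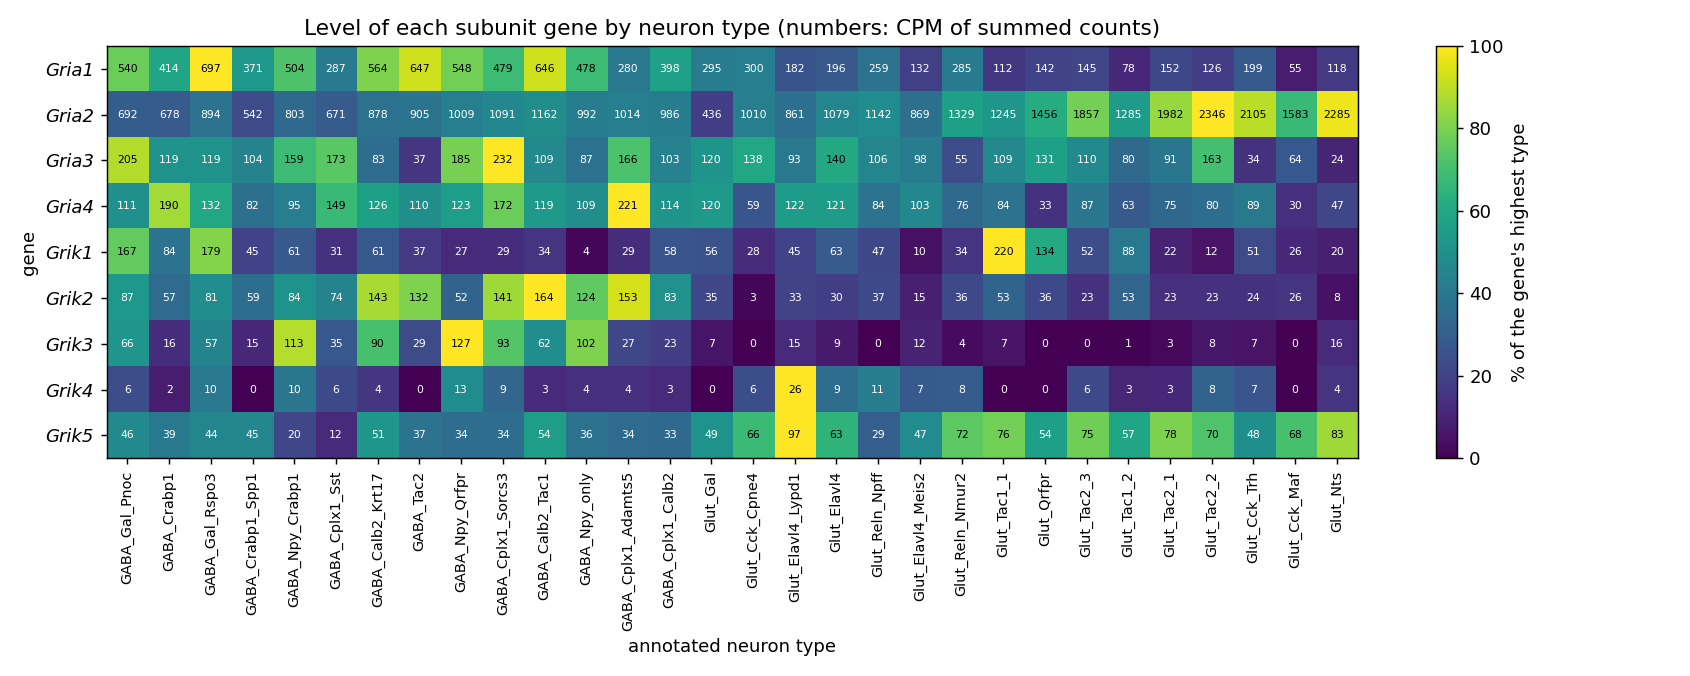
Level of the 9 subunit genes (rows) in the 30 annotated types (columns), which are sorted by class and, within it, by the Gria2 share of AMPA UMIs. Colour is the percent of the gene's own highest type, and numbers are CPM of summed counts. Gria1 and Grik3 are high on the inhibitory side (Gria1 up to 697 CPM) and Gria2 on the excitatory side (up to 2346 CPM).

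Among kainate genes the leading subunit changed from type to type. With all lines pooled, Grik2 had the most UMIs of the family in 9 of 14 inhibitory types and 0 of 15 excitatory types. Grik5 had the most in 0 and 9, Grik1 in 3 and 6, and Grik3 in 2 and 0. The leading subunit was not counted by line. In wild-type inhibitory cells the median share over 7 sets was 35.8% for Grik1, 27.7% for Grik2 and 25.4% for Grik5. In vGat inhibitory cells Grik2 made up 37.9% to 38.9% and Grik1 23.4% to 28.7%. The order of the wild-type medians thus differed from that in vGat, but the wild-type sets were spread around the vGat values. They ran from 19.7% to 38.5% for Grik1 and from 17.02% to 41.1% for Grik2. Some of them had Grik2 above Grik1, as vGat did, and the order was not tested. Grik1 was highest in Glut_Tac1_1 at 220 CPM (233.7 ± 93.7 over 7 sets), where it made up 61.9% of kainate UMIs (55.01% to 68.4%). GABA_Gal_Rspo3 (179.2 CPM) and GABA_Gal_Pnoc (166.8 CPM; 162.2 ± 42.8 over 9 sets) came next. Its lowest types were GABA_Npy_only (3.65 CPM, 1 UMI), Glut_Elavl4_Meis2 (9.79 CPM) and Glut_Tac2_2 (11.6 CPM). Grik1 was thus high in some types of both classes and near 0 in others.

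Grik2 was highest in GABA_Calb2_Tac1 (164.1 CPM), GABA_Cplx1_Adamts5 (153.2 CPM; 154.2 ± 47.6 over 6 sets) and GABA_Calb2_Krt17 (142.6 CPM). It was lowest in Glut_Cck_Cpne4 (3.13 CPM, 1 UMI), Glut_Nts (7.87 CPM, 2 UMIs) and Glut_Elavl4_Meis2 (14.7 CPM). Grik3 was highest in the 3 types named for neuropeptide Y: GABA_Npy_Qrfpr (126.6 CPM), GABA_Npy_Crabp1 (112.5 CPM; 124.04 ± 29.4 over 4 sets) and GABA_Npy_only (102.1 CPM). In GABA_Npy_Qrfpr it was 50.0% of kainate UMIs (41.4% to 58.6%). It had 0 UMIs in 5 excitatory types, where a count of 0 allows up to 9.38 to 17.4 CPM. With all lines pooled no excitatory type passed 15.7 CPM. By line, the highest excitatory type was Glut_Tac2_2 in wild type (23.8 CPM) and Glut_Nts in vGlut2 (32.8 CPM).

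Grik5 was highest in Glut_Elavl4_Lypd1 (96.5 CPM), Glut_Nts (82.6 CPM) and Glut_Tac2_1 (77.6 CPM; 103.8 ± 38.2 over 6 sets) and lowest in GABA_Cplx1_Sst (11.6 CPM, 6 UMIs), GABA_Npy_Crabp1 (20.5 CPM) and Glut_Reln_Npff (29.2 CPM). Grik4 had 88 UMIs in all and 0 UMIs in 6 types, and its highest value, 26.0 CPM in Glut_Elavl4_Lypd1, rests on 7 UMIs. Of the animal sets, 2 had 3 or more cells of that type, and neither held any of them. In the order of levels, neighbours overlapped in their sets in 27 of 27 pairs for Gria1, Gria3, Gria4 and Grik1 to Grik4 and in 26 of 27 for Gria2 and Grik5, among types with 2 or more such sets. The highest and lowest of these types had sets that were apart for every member except Grik4. Both ends were picked by the same values, so this is a description and not a test.

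Across the 30 types, log2(CPM + 10) of Gria1 varied with that of Grik3 (Pearson r = 0.76), Grik2 (r = 0.66) and Gria4 (r = 0.63) and against Gria2 (r = -0.56). Grik2 and Grik3 had r = 0.71. The points share class, line and run, and these values were not those within the classes. Gria1 had r = 0.50 with Grik3, 0.18 with Grik2, -0.39 with Gria4 and 0.35 with Gria2 over the 14 inhibitory types. Over the 15 excitatory types the same pairs had r = 0.0094, -0.24, 0.46 and -0.28. Grik2 and Grik3 had r = 0.23 and r = -0.15. The highest r of Gria1 with another member was 0.56 in both classes, with Grik5 in inhibitory and with Grik4 in excitatory types.

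Of 7579 genes with a mean of at least 20 CPM over types, those most alike to Gria1 were Lgals9 (r = 0.87) and Fstl5 (r = 0.87), and those most alike to Grik3 were 1500016L03Rik (r = 0.91) and Npy (r = 0.90), the gene of neuropeptide Y. For Grik2 they were Serpinb1b (r = 0.86) and Gad2 (r = 0.82), a GABA-synthesizing enzyme, and for Gria4 Mpped2 (r = 0.73) and again Gad2 (r = 0.72). For Gria2 they were Itpr1 (r = 0.83), an intracellular calcium channel, and A330021E22Rik (r = 0.82). For Grik5 they were Slc17a6 (r = 0.68), the vesicular glutamate transporter used for the reporter line, and Dbp (r = 0.68). Gria3 was most like Tmem43 (r = 0.73) and Fbll1 (r = 0.72), Grik1 most like Sema5a (r = 0.69) and Hoxa9 (r = 0.65), and Grik4 most like Dgcr8 (r = 0.68) and Pcnx (r = 0.62), all over 30 types. These r pool both classes and all lines, and each was picked as among the highest of the 7579 genes. They were not computed within the classes, so a gene that follows the class alone can come out alike.

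Whether a class has the same levels in a reporter line as in wild type was compared next. In inhibitory cells, Gria1, Grik2 and Grik3 were higher and Grik5 lower in the vGat line than in wild type, 3 of 8 members higher and 1 lower, against 8.34% and 12.9% of the 7687 genes tested. Gria1 had 479.5, 635.9 and 653 CPM in the vGat sets and 280 to 508.96 CPM over the 7 wild-type sets, which overlap (log2 difference 0.55, SE 0.17, adjusted p = 0.0250). Grik2 had 111.3, 127.6 and 130.7 CPM against 34.2 to 85.4 CPM, without overlap (0.87, SE 0.21, adjusted p = 0.00455). Grik3 had 67.9, 68.6 and 87.4 CPM against 14.2 to 65.9 CPM, without overlap (0.82, SE 0.25, adjusted p = 0.0237), and Grik5 had 32.5, 29.5 and 39.6 CPM against 25.6 to 101.8 CPM (-0.81, SE 0.26, adjusted p = 0.0306). Without the 18-day vGat set Grik2 alone passed, and without the 17-day or 24-day vGat set or the 20-day wild-type set 2 members did. Over all genes, 992 of 7614 (without the 24-day vGat set) to 1332 of 7017 (without the 20-day wild-type set) were called in these fits, against 1630 of 7687 with every set kept.

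Oligodendrocyte markers moved with that comparison. Their sum over 10 genes was 1481 to 4421 CPM in inhibitory cells of the vGat sets and 19760 to 38424 CPM in those of wild type, and 10 of 10 were called lower in vGat, as were 3 of 5 astrocyte markers and 3 of 3 precursor markers tested. The part of this RNA in the receptor values was not tested, and the vGat line cannot be told apart from its capture runs. Of the 4 neuron markers, 2 were higher in vGat and 0 lower: Snap25, a synaptic fusion protein gene, by 0.55 (SE 0.17, adjusted p = 0.0263) and Tubb3, a neuronal tubulin gene, by 0.72 (SE 0.16, adjusted p = 0.00146).

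In excitatory cells, 0 of 7 members passed between the vGlut2 line and wild type (edgeR), against 15.1% of the 7163 genes tested, 1 of them (Grik1) had an unadjusted p under 0.05, and DESeq2 also called 0. Gria1 had 161.8, 200.9, 213.2 and 138.1 CPM in the vGlut2 sets of 23 to 26 days and 88.3, 133.4 and 188.6 CPM as lowest, median and highest of 9 wild-type sets (log2 difference 0.38, SE 0.20, adjusted p = 0.206). Grik1 had 52.5, 19.1, 52.7 and 9.21 CPM against 21.7, 63.7 and 147.8 CPM (-0.78, SE 0.35, adjusted p = 0.140). Excitatory cells of the vGlut2 sets other than that of 26 days had oligodendrocyte markers at 78.7 to 2125 CPM, against 16809 to 58045 CPM in wild type. Ganglion sensory neuron markers summed to 193.4 to 382.7 CPM in the vGlut2 sets and to 16.3 to 89.8 CPM in wild type, again mostly Calca (log2 difference 2.30, SE 0.30, adjusted p = 2.57e-05), with none of the others above 7.23 CPM in any set; their part in the Grik1 values was not tested. Without the 26-day set 0 of 7 members passed as well, against 1338 of all 7966 genes tested, and 1 had an unadjusted p under 0.05. Grik1 then differed by -0.64 (SE 0.33, adjusted p = 0.214) and Gria1 by 0.45 (SE 0.21, adjusted p = 0.152).

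By type, Gria1 was higher in the line than in wild type in 14 of 14 inhibitory types (vGat) and 13 of 13 excitatory types with enough cells (vGlut2). Grik2 was higher in 14 of 14 inhibitory types and 4 of 13 excitatory types, Gria2 in 9 of 14 and 11 of 13, Grik3 in 12 of 14 and 3 of 13, and Grik5 in 4 of 14 and 3 of 13. The types of a line share its runs, so these counts are a description. The order of types was alike for Gria1 in wild type and line, with r = 0.78 on the log2 scale over 14 inhibitory types and r = 0.87 over 13 excitatory types. It was less alike for Grik5, with r = -0.0029 and r = 0.13.

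**Figure D4:**
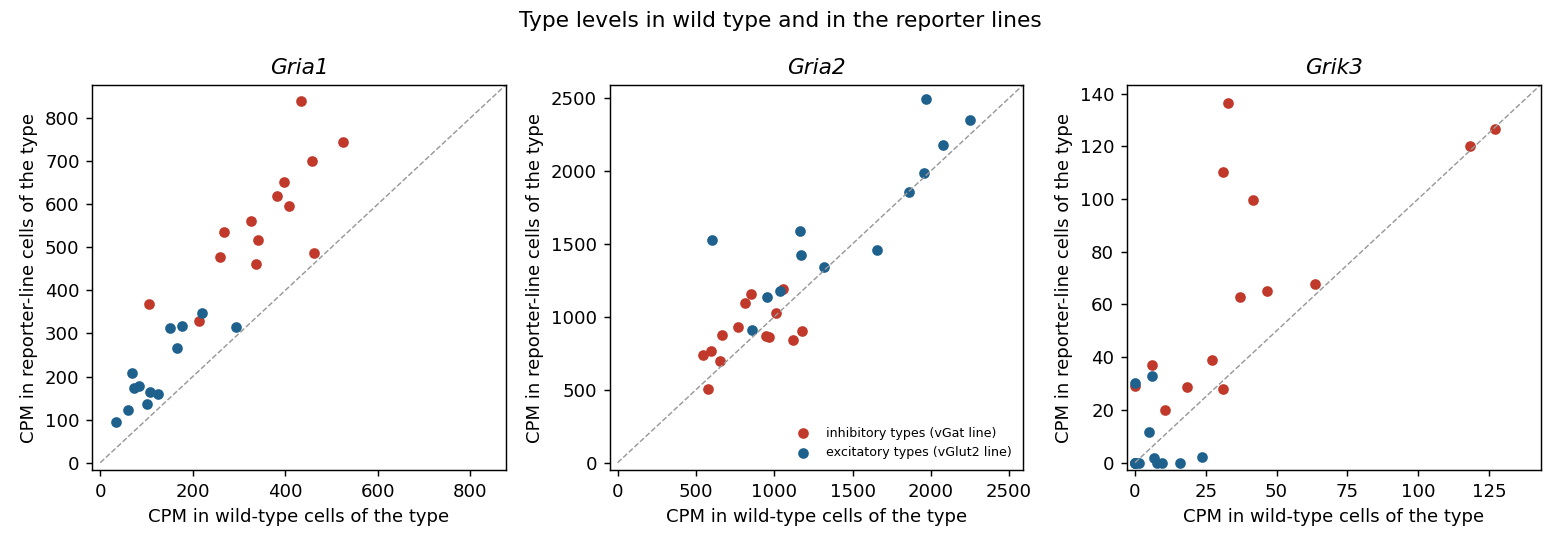
CPM of Gria1, Gria2 and Grik3 in each annotated type, in wild-type cells (x axis) and in cells of the reporter line of the same class (y axis), for types with at least 5 cells in both. The dashed line marks equal levels. All 14 inhibitory and 13 excitatory types lie above it for Gria1.

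The class difference in the reporter lines and that in wild type were set against each other in 1 fit. This fit had no block for the set, so the inhibitory and excitatory cells of a wild-type set entered as separate samples. Their pairing was not used, and a difference that did not pass does not show that the effects are equal. No member passed (0 of 8 with edgeR's interaction term and 0 of 8 with DESeq2, against 0.289% of 8316 genes), and 1, Grik2, had an unadjusted p under 0.05. Its class difference was larger in the reporter lines by 1.36 on the log2 scale (SE 0.38, adjusted p = 0.161). For Gria1 the difference between the effects was 0.13 (SE 0.27, adjusted p = 0.999) and for Gria2 -0.02 (SE 0.38, adjusted p = 0.999). Over the ages covered, no member passed for a slope with age in wild-type sets labelled M: 0 of 8 passed in inhibitory cells (edgeR, 0.0472% of 6352 genes called) and 0 of 7 in excitatory cells (0.0269% of 7424 genes), and DESeq2 called 0 in both. The unadjusted p was under 0.05 for 1 of them, Grik1 in inhibitory cells, with a slope of -0.12 per day on the log2 scale (SE 0.05, adjusted p = 0.634).

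Genes that act with the receptors were read from the same fits, with the percentages called among all genes as above. Of 15 auxiliary subunit genes, 13 were tested between the reporter lines, and 2 were higher and 2 lower in vGat. Cacng2 (stargazin), which traffics and gates AMPA receptors, had 94.6 ± 19.6 CPM (n = 3) against 40.2 ± 20.5 CPM (n = 4), a log2 difference of 1.24 (SE 0.28, adjusted p = 0.00877), and Neto2, an auxiliary subunit of kainate receptors, differed by 0.96 (SE 0.23, adjusted p = 0.0145). Frrs1l, which takes part in AMPA receptor assembly, was lower at 111.995 ± 18.3 against 290 ± 92.8 CPM (-1.42, SE 0.23, adjusted p = 0.000583), and Cacng5, a relative of stargazin, was lower (-1.03, SE 0.23, adjusted p = 0.00874). When the 26-day vGlut2 set was dropped, 3 were higher and 3 lower, against 744 and 733 of all 10737 genes tested. The 4 genes named then differed by 1.20, 0.94, -1.55 and -1.08 in the order given.

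In wild type, 1 of 9 auxiliary subunit genes tested was higher in inhibitory cells and 2 were lower. Cacng2 was higher (0.68, SE 0.14, adjusted p = 0.00453), and Frrs1l (-0.91, SE 0.20, adjusted p = 0.00581) and Cacng5 (-0.98, SE 0.26, adjusted p = 0.0261) were lower. These directions are those seen between the reporter lines. Cacng2 was lower in both lines than in wild type of the same class, with log2 differences of -0.79 (adjusted p = 0.00298) in inhibitory and -1.28 (adjusted p = 0.00338) in excitatory cells.

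Of the NMDA and delta receptor subunit genes, 8 of 9 were tested between the reporter lines, and 1 was higher and 3 were lower in vGat, also without the 26-day vGlut2 set. Among them, Grin2c was higher in vGat (13.9 ± 3.98 against 2.24 ± 2.85 CPM, 3.48, SE 0.67, adjusted p = 0.00263), and Grid1 (-2.54, SE 0.36, adjusted p = 0.000176) and Grin3a were lower. In wild type 3 were tested, and Grin3a was lower in inhibitory cells, at 62.01 ± 24.9 against 231.7 ± 69.5 CPM (-1.91, SE 0.19, adjusted p = 4.14e-07, n = 7 sets, edgeR). Of 12 scaffold and trafficking genes tested between the lines, Grip1, a scaffold of AMPA receptor tails, was higher (1.00, SE 0.27, adjusted p = 0.0284) and Nptx2, a secreted pentraxin that clusters AMPA receptors, was lower (-3.13, SE 0.57, adjusted p = 0.00167). When the 26-day vGlut2 set was dropped, these were 0.93 and -3.27, and Grin2c and Grid1 differed by 3.99 and -2.62. Nptx2 was lower in wild-type inhibitory cells as well (-1.94, SE 0.48, adjusted p = 0.0155), the 1 call among 11 tested. Of the RNA editing enzymes, among them Adarb1, which edits the Q/R codon printed above, 0 of 3 passed between the lines and 0 of 2 between the classes in edgeR. Of these, 1 had an unadjusted p under 0.05, Adarb2 between the lines (-0.79, SE 0.33, adjusted p = 0.180). Adarb1 itself had 74.6 ± 5.94 CPM in vGat and 59.4 ± 8.26 CPM in vGlut2 (0.33, SE 0.19, adjusted p = 0.334). When the 26-day vGlut2 set was dropped, again 0 of 3 passed in edgeR, with Adarb2 the 1 with an unadjusted p under 0.05 (-0.89, adjusted p = 0.0771).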

How the data were processed

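The values are molecule (UMI) counts for each gene in each cell, deposited by the authors without normalization. Per the submitters' processing notes, Cell Ranger and the mm10 build were used; no version of the former is given in the sources used here. The labels' protocols describe a preparation of dorsal horn tissue, and the titles have the form of run and well. Every column was mapped to a labelled cell, and no cells had identical columns (0). Each cell's line, age, sex label, type and class came from the labels. No doublet caller or further cell filter was applied; the shallowest cell held 3012 UMIs. Of 24378 genes, 4507 had no count.

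The labels name no animals, so counts were summed per line, age and sex label (animal sets), and per class within a set where it held at least 10 cells. CPM is the count per 1000000 UMIs. Fits used edgeR 4.0.16 (TMM, filterByExpr, quasi-likelihood test, Benjamini-Hochberg over all genes tested, threshold 0.05) in R 4.3.3. The wild-type class fit has the set as a block, since both classes came from the same sets. Alternatives were RLE scaling, no filter, DESeq2 1.42.0, limma 3.58.1, age as a covariate, own class only, at least 20 cells per set and each set left out. The fits were also run on simulated counts with planted changes, with the same spread for every gene and no effect of set or run. These runs therefore do not bear on how uneven the real sets are. Shares of family UMIs were tested with exact permutation tests over sets (scipy 1.17.1). Intervals are exact 95% binomial ones and, like limits from 0 counts (3 counts per type), cover counting error only. Type levels per set need at least 3 cells, and levels per line at least 5.

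Members and gene lists were chosen with earlier results of these data known. All 9 members are named. Of the auxiliary, NMDA and delta, scaffold and editing lists, genes called between lines or between wild-type classes were named, at most 6 per list; 1 called gene is left unnamed, and its values are not reported here. For each member the 3 highest and 3 lowest types and the 2 most alike genes were named, by r of log2(CPM + 10) among genes with a mean of at least 20 CPM; 2 further types are said to be named after their values were seen, as are the markers in the comparison of lines with wild type.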

Additional observations from a re-analysis of the deposited data

Results flagged for a closer look

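In each group of 4 to 10 animal sets, the highest and lowest set was compared with the nearest other by Dixon's criterion. Of 57 groups looked at, 7 held a set that stood apart. For a single group chance gives about 1 in 20. The groups share sets and genes, and shares of a family depend on each other, so 7 of 57 cannot be set against that rate. Among the vGlut2 sets, the 26-day set had Gria1 at 22.4% of AMPA UMIs (8.30% to 9.41% in the other 3), Gria2 at 64.7% (81.9% to 83.8%) and Grik3 at 23.1% of kainate UMIs (0% to 3.15%). The 25-day vGlut2 set had Grik2 at 31.7 CPM, against 18.9 to 19.5 CPM. Among the wild-type excitatory values, the 22-day set labelled F had Gria2 at 2629 CPM (839.9 to 1568 CPM in the other 8 sets) and Gria3 at 178.7 CPM (79.1 to 108.4 CPM). In the same set Grik4 took 10.1% of kainate UMIs, against 0.957% to 3.70% in the other 6.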

How the results depend on the processing

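Gria1, Grik2 and Grik3 passed between the reporter lines with each set left out, with DESeq2 and with age as a covariate. With limma on cell means Grik3 did not pass (log2 difference 4.60, SE 1.05, adjusted p = 0.0676). Of the 8 members tested, 6 passed as reported, and of 8 or 9 tested 3 did with age as a covariate, 2 with limma on cell means, and 3 to 8 with 1 set left out; the cause was not tested. Between the vGat line and wild type, 4 passed as reported and 1 to 4 with 1 set left out. Over all genes, 1630 of 7687 were called there as reported. With 1 set left out, 992 of 7614 (without the 24-day vGat set) to 1729 of 8105 (without the 19-day wild-type set) were called. Of the wild-type shares, 4 passed as reported, 7 when each cell weighed the same, 0 with at least 20 cells per set and 0 with any set left out, where the smaller number of pairs raises the smallest p that the exact test allows.

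Without the replicate block 3 members passed between wild-type classes (Gria1, Gria2 and Gria4), and Grik3 did not pass the filter on low counts there; both classes come from the same sets, which is where the pairing comes from.

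Changes of direction touched members that had not passed. With 1 set left out, the wild-type class difference of Grik1 ran from -0.22 to 0.15, and limma gave 0.30. Between vGat and wild type, Grik1 ran from -0.063 to 0.19, Gria2 from -0.030 to 0.25 and Gria3 from -0.015 to 0.28. Between vGlut2 and wild type, Gria2 ran from -0.031 to 0.32. In the difference between class effects, Gria2 ran from -0.26 to 0.12 and was 0.091 with no filter, and Gria4 ran from -0.049 to 0.16. Slopes per day in inhibitory cells ran from -0.034 to 0.0018 for Gria1, -0.0052 to 0.074 for Gria2 and -0.021 to 0.081 for Grik2. In excitatory cells they ran from -0.011 to 0.017 for Gria3, -0.030 to 0.025 for Grik5 and -0.017 to 0.046 for Gria4. The Grik1 share of kainate UMIs differed between the lines by -3.41 to 3.47 percentage points with 1 set left out, by -0.000735 with each cell weighing the same and by -1.05 in the own class only.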
